A study of Mus musculus with 6 samples.

Results

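MicroRNA (miRNA) reads that carried 1 to 3 adenosines beyond their hairpin sequence were followed in small RNA libraries of mouse sensorimotor cortex. Such a read was 19 to 26 nt long and was not contained in any annotated miRNA hairpin. It became a sense match of 18 nt or more, without mismatch, once the fewest possible 3′ bases were removed, and all removed bases were A. By this definition 11199 of the 2543604 distinct reads were A-tailed. They belonged to the arms (the 5p or 3p product of a hairpin) from which the trimmed read came, and 221 of 1421 arms with any read had at least 1000 untailed reads in every library. These 221 arms, each with 10 or more A-tailed reads over the 6 libraries, held 98.4% to 98.6% of all A-tailed reads. At the edge of the minimum, miR-203-3p (lowest library 1001 untailed reads, share 2.11%) and miR-24-1-5p (1010, 1.23%) were just inside, and miR-770-3p (990, 15.6%) and miR-128-1-5p (958, 2.50%) just outside.

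The libraries came from adult male C57BL/6J mice operated on at postnatal day 90 and killed 7 days later, when the sensorimotor cortex was dissected. In the SCI group (3 libraries) the spinal cord was cut completely at the C5/6 level, and in the control group (3 libraries) the cord was laid bare without damage. The cut lies far from the sampled tissue, which holds neurons whose axons descend into the cord. The labels call the samples individually collected, and no animal identifiers beyond that were used, so p-values measure the spread between these samples.

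Most mature miRNAs are cut from a hairpin by Drosha and Dicer, and their 3′ ends are then open to trimming and to the addition of bases that the genome does not encode. Adenosine is added by terminal nucleotidyl transferases such as GLD2 (TENT2), which is known to adenylate the liver miRNA miR-122, whereas TUT4 and TUT7 add uridine and are best known for tailing let-7 precursors. The seed, bases 2 to 8 from the 5′ end, selects targets and is not touched by a 3′ tail. An added A is visible in a read only where the hairpin does not itself encode an A at the next position.

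The reads below show what was counted. The first set holds the most abundant A-tailed read of the arms with the highest A-tailed share, and the capital marks the added A; all are written as sequenced DNA, 5′ to 3′.
miR-652-3p: aatggcgccactagggttgtgA
miR-134-5p: tgtgactggttgaccagagggA
miR-100-5p: aacccgtagatccgaacttgtgA
miR-3107-5p/miR-486-5p: tcctgtactgagctgccccgagA
miR-99a-5p: aacccgtagatccgatcttgtgA
miR-323-3p: cacattacacggtcgacctcA
miR-1198-5p: tatgtgttcctggctggcttggA
miR-185-5p: tggagagaaaggcagttcctgaA
miR-330-5p: tctctgggcctgtgtcttaggA
miR-125b-2-3p: acaagtcaggttcttgggacA
miR-328-3p: ctggccctctctgcccttccgA

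The second set shows why the position of the tail matters. These are the most abundant untailed reads of 5 arms, with the hairpin bases that follow them in capitals. In miR-100-5p the next hairpin base is C and in miR-99a-5p it is G, so an added A shows. In miR-9-3p, miR-23a-3p and miR-103-3p it is A, and an A added to these reads cannot be seen.
miR-100-5p: aacccgtagatccgaacttgtgCTGATT
miR-99a-5p: aacccgtagatccgatcttgtGGTGAA
miR-9-3p: ataaagctagataaccgaaagtAAAAAT
miR-23a-3p: atcacattgccagggatttccAACTGA
miR-103-3p: agcagcattgtacagggctatgaAGGCAT

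The third set gives the RefSeq mature sequences (GRCm38.p6 table) of arms that recur below, with the seed in capitals. The members of the miR-99 and miR-100 family share the seed ACCCGUA, miR-132-3p shares AACAGUC with miR-212-3p, and miR-152-3p shares CAGUGCA with miR-148b-3p.
miR-99a-5p: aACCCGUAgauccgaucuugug
miR-99b-5p: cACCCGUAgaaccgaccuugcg
miR-100-5p: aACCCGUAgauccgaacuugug
miR-132-3p: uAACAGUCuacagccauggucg
miR-212-3p: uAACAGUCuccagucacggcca
miR-152-3p: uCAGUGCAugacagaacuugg
miR-148b-3p: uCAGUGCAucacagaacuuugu
let-7a-5p: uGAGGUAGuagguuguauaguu
miR-21a-5p: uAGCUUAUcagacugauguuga
miR-26a-5p: uUCAAGUAauccaggauaggcu

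The libraries held 10585062 to 24480988 reads, of which A-tailed reads made up 3.97%, 4.19% and 4.02% in control 1, 2 and 3, against 4.83%, 4.16% and 4.09% in SCI 1, 2 and 3. Markers matched the labelled tissue: the 6 neuron miRNAs (among them miR-124-3p and miR-128-3p) summed to 112900 to 133600 CPM (scaled read counts relative to all untailed miRNA reads) in each library, and the liver miRNA miR-122-5p lay between 3.55 and 6.72 CPM. The 3 oligodendrocyte miRNAs summed to 6442 to 8762 CPM in the control libraries and to 5637 to 6418 CPM in the SCI libraries, without overlap. The summed levels of the leukocyte, endothelial, erythrocyte, choroid plexus and muscle lists overlapped between the groups. Control 1 stood apart from the other libraries in its untailed 3′ ends. Among untailed reads with the main 5′ start, 26.5% ended short of the main end in control 1, against 31.6% to 33.1% in the other 5 libraries. Chi-square values per degree of freedom over untailed counts were 1662 to 3109 between control 1 and the others, and 336 to 909.9 among the others.

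The A-tailed share of an arm is the A-tailed reads divided by A-tailed plus untailed reads, so U-tailed reads are not in the denominator. Its median over the 221 arms was 4.57%, with quartiles of 2.24% and 9.39%. In 50 arms the share was 10% or more, in 7 it was 20% or more, and in 16 it was under 1%. The order of the arms was nearly the same in every library, with Spearman's rho of 0.966 to 0.994 between pairs of libraries over the 221 arms, which share sequence and adapters. Arms with many untailed reads were tailed about as much as arms with few (rho -0.0478 over 221 arms, as a description).

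Most tails were a single A. Reads with 1 added A made up 89.7% to 91.1% of A-tailed reads, those with 2 added A 7.95% to 8.88% and those with 3 added A 0.958% to 1.45%. A few arms had longer tails: in 25 arms more than 20% of the A-tailed reads carried 2 or 3 A. In miR-185-5p, 54.8% of the A-tailed reads had 1 A and 39.4% had 2 A, and in miR-134-5p the values were 65.9% and 25.4%. By contrast, 98.4% of the A-tailed miR-99a-5p reads and 97.2% of the miR-100-5p reads had exactly 1 A.

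A and U were the bases added in quantity. Single added A made up 44.0%, 48.0% and 46.8% of all single added bases in control 1, 2 and 3, against 51.1%, 49.4% and 48.4% in SCI 1, 2 and 3. Single added U (read as T) made up 44.4% to 50.9%, while C and G each stayed between 2.17% and 2.70%. C and G were found by the same rule and give the level of other unmatched last bases, miscalls included: C-tailed reads were 0.258% to 0.281% and G-tailed reads 0.253% to 0.292% of arm reads, against 4.82% to 5.79% for A. The A-tailed share was above the C-tailed share in 212 of 221 arms, above the G-tailed share in 215 and above the U-tailed share in 128. A-tailed and U-tailed shares were loosely related across arms (rho 0.385, 221 arms, as a description).

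The arm with the highest share was miR-652-3p (hairpin at X:142739000-142739097 on the plus strand, GRCm38). Its A-tailed share was 34.2%, 29.8% and 30.1% in control 1, 2 and 3, against 34.1%, 30.6% and 32.5% in SCI 1, 2 and 3, and the 2 groups overlapped. This arm was also U-tailed, at 78.1% on the same scale, and 96.7% of its A-tailed reads carried the A directly after its main 3′ end. U-tailed reads are outside the denominator of the A-tailed share. A-tailed reads were therefore a smaller part of all reads of this arm than the share gives, and its rank holds for this denominator only. miR-134-5p, a brain miRNA of the imprinted Dlk1-Dio3 cluster known for restraining dendritic spine growth, followed at 24.8% (12:109734139-109734209, plus strand). In miR-134-5p 82.4% of the A-tailed reads had shortened ends, that is, the trimmed read stopped short of the main 3′ end. Where it stopped 1 base short, a substituted last base would give the same read as a lost base and an added A. Such percentages by end, here and below, cover A-tailed reads with the 5′ start of the main read.

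The 3 arms of the miR-99 and miR-100 family had a median share of 21.4%. miR-100-5p (9:41531425-41531504, plus strand) had shares of 26.1%, 24.0% and 23.6% in control 1, 2 and 3, against 24.4%, 26.2% and 24.1% in SCI 1, 2 and 3. miR-99a-5p (16:77598936-77599000, plus strand) had 25.2%, 19.6% and 19.2%, then 21.8%, 20.99% and 21.7%. miR-99b-5p (17:17830188-17830257, plus strand) had 11.3%, 9.56% and 10.1%, then 11.3%, 10.9% and 10.2%. The groups overlapped for all 3, and miR-99b-5p lay below the other two in each of the 6 libraries.

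In this family the A sat on one 3′ end. Of miR-99a-5p reads ending at nt 22, the final G of the mature sequence, 44.6%, 46.8% and 47.8% were A-tailed in control 1, 2 and 3, against 51.0%, 51.3% and 52.7% in SCI 1, 2 and 3. Reads of the same arm ending 1 base earlier, at nt 21, were more abundant (143319 against 58097 untailed reads) but were A-tailed at only 0.690% on average. The same held for miR-100-5p, with 37.6% at nt 22 and 1.71% at nt 21, and for miR-99b-5p, with 16.02% at nt 22 and 4.54% at nt 21. A share at nt 21 counts reads that would also arise if the base at nt 22 were read as A, since the 2 cannot be told apart.

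Other highly tailed arms had no shared family. The joint arm miR-3107-5p/miR-486-5p, whose second member is an erythroid and muscle miRNA, had a share of 21.5%, and miR-323-3p, of the Dlk1-Dio3 cluster (12:109712508-109712593, plus strand), 20.7%. The joint arm miR-378a-3p/miR-378b/miR-378c had 20.6%, miR-1198-5p 19.4%, miR-185-5p 19.4%, miR-330-5p 18.3%, miR-125b-2-3p 17.02% and miR-328-3p 16.97%. Of these, only miR-185-5p had every SCI library above every control library, with 17.6%, 18.5% and 16.5% in control 1, 2 and 3, against 24.03%, 18.6% and 21.01% in SCI 1, 2 and 3. A-tailed miR-323-3p reads had shortened ends in 97.9% of cases. The printed read ends in A in place of the templated T, which a substituted base would also give.

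Ends of the same arm often differed in their share. In 94 arms 2 or more ends had at least 1000 untailed reads in each library and were not followed by a templated A, and the highest share of any end was a median of 5.22 times the lowest. The ratio was 2 or more in 81 of the 94 arms and 5 or more in 49. By its making this ratio cannot fall below 1, and it does not show that a single end was favoured. In miR-222-3p, for example, the mean share was 25.1% at nt 20, 15.9% at nt 22 and 13.2% at nt 24. In miR-9-5p, a miRNA of neural progenitors and neurons, reads ending at nt 20 were A-tailed at 23.8% on average, those at nt 21 at 1.42% and those at nt 23, the main end, at 2.18%. In miR-30d-5p (15:68341208-68341289, minus strand) reads ending at nt 21 were A-tailed at 20.9% and those at nt 23 at 1.47%. A templated A follows nt 19 of miR-9-5p and nt 20 of miR-30d-5p. Tails of several A on those shorter ends would therefore be counted at nt 20 and nt 21.

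The base before the tail went with the share. Over the 378 ends not followed by a templated A, the median share was 8.49% for the 100 ends that finished in G, 5.84% for the 56 in C, 3.21% for the 53 in A and 2.28% for the 169 in T. Arms whose most abundant read ended in G had a median share of 10.5% (40 arms), against 4.34% for C (37 arms), 3.58% for A (32 arms) and 4.10% for T (112 arms). Pooled over arms, ends in G were A-tailed at 9.44% to 11.2% in the 6 libraries and ends in T at 4.31% to 5.44%. The ranges did not overlap, and no test was made because arms of 1 family share sequence.

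Where the hairpin encodes A next, the tail could not be seen. Between 19.5% and 22.8% of untailed reads were followed by a templated A, and for 37 arms this held for over 50% of their untailed reads. The 43 arms whose main end is followed by A had a median share of 3.06%, against 5.31% for the 174 arms followed only by other bases. With the untailed reads before a templated A left out of the denominator, the medians were 6.67% and 6.22%.

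The 2 arms with the lowest shares were of this kind. miR-103-3p was A-tailed at 0.0128% and miR-107-3p at 0.0138%, and 99.8% and 99.9% of their untailed reads preceded a templated A; the most abundant 21-nt read that both arms contain was left out because it belongs to both. In miR-9-3p, at 0.337%, 92.6% of the untailed reads preceded a templated A, and the share of the rest was 4.47%. miR-344d-3p was at 0.136%, with 92.1% of untailed reads before a templated A.

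The erythroid pair was low for its visible ends too. miR-451a, which is cut by Argonaute 2 and not by Dicer (11:78073170-78073241, plus strand), was A-tailed at 0.189%, and at 0.347% without reads before a templated A. miR-144-3p, from the neighbouring hairpin (11:78073005-78073070, plus strand), was at 0.320% and 0.670%. Both rest on few reads, 132 A-tailed reads for miR-451a and 60 for miR-144-3p over all libraries. miR-144-3p had 0.270%, 0.164% and 0.155% in control 1, 2 and 3, against 0.514%, 0.348% and 0.470% in SCI 1, 2 and 3, without overlap, from 2 to 19 A-tailed reads per library. For miR-451a in control 2 the share was 0.0576% with a 95% Wilson interval of 0.0158% to 0.210%, and the groups overlapped.

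The 5 arms with the most untailed reads lay on both sides of the median of all arms. miR-26a-5p, abundant in neurons and glia, had a mean share of 5.46%, miR-128-3p, a neuron miRNA, 7.40%, miR-9-5p 2.23%, miR-29a-3p 1.98% and miR-9-3p 0.337%. An added A is hidden at the main end of miR-29a-3p, nt 21 (3361361 untailed reads), and at nt 22 of miR-9-5p (1697548), as in miR-9-3p above. For these 3 arms the share is therefore not that of visible ends alone. miR-128-3p by itself gave 556752 A-tailed reads. The 10 arms with the most A-tailed reads held 44.2% to 47.0% of them in each library.

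Among the other families, the 9 let-7 arms ranged from 4.30% for miR-98-5p to 15.8% for let-7i-5p, with a median of 5.90%. U-tails were seldom seen in this family, whose precursors are the known targets of TUT4 and TUT7. The median U-tailed share was 0.154%, against 3.63% over all arms. However, the main ends of let-7a-5p, let-7b-5p, let-7c-5p, let-7d-5p and let-7g-5p, at nt 22, precede a templated T. An added U is hidden there, so the low share does not show that U-tails were rare. For let-7a-5p the A-tailed share was 5.39% and the U-tailed share 0.0568%, although untailed ends before a templated T hide an added U in the same way. let-7i-5p (10:122985640-122985724, minus strand) was tailed with both, at 15.8% A and 14.2% U.

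The 7 arms of the miR-17-92 and miR-106b-25 clusters, which are linked to proliferation, had a median share of 10.6% and ran from 0.602% for miR-19b-3p to 15.3% for miR-92a-3p. The 5 arms of the miR-181 family ran from 2.05% for miR-181a-1-3p to 10.8% for miR-181b-5p. The 5 arms of the miR-15 and miR-16 family ran from 1.32% for miR-15b-5p to 13.1% for miR-15a-5p. The 6 miR-29 arms (median 2.75%) and the 3 miR-7 arms (median 1.55%) lay below the median of all arms. The 6 neuron markers had a median of 7.58%, from 2.79% for miR-124-3p to 10.8% for miR-218-5p, and the 43 arms of the Dlk1-Dio3 cluster a median of 3.94%. Hidden tails lower some of these values. With untailed reads before a templated A left out, the median of the miR-15 and miR-16 family went from 4.77% to 12.3%. The medians were then 3.77% for miR-29, 1.55% for miR-7, 8.21% for the neuron markers, 5.59% for the Dlk1-Dio3 cluster and 6.38% over all arms.

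The 2 arms of 1 hairpin often differed in their A-tailed share. Of 30 hairpins with both arms measured, the 5p arm was higher in all 6 libraries for 15, the 3p arm in all 6 for 12, and 3 were mixed. The 118 5p arms had a median share of 4.91% and the 102 3p arms 3.85%. With untailed reads before a templated A left out, these medians were 6.46% and 6.21%. The counts per hairpin were not repeated without such reads. In some pairs, such as those of miR-29a and miR-151, an A added at the main end of 1 arm is hidden. The activity-regulated pair miR-132 and miR-212, which lie side by side on chromosome 11, had low 5p and high 3p arms: 1.13% for miR-132-5p and 7.29% for miR-132-3p, and 0.985% for miR-212-5p and 12.5% for miR-212-3p. In miR-330 the order was the opposite, with 18.3% for the 5p arm and 6.03% for the 3p arm.

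The comparison of SCI with control asked whether cutting the cord goes with a different degree of 3′ adenylation in the cortex. Pooled over the 221 arms, the A-tailed share was 4.82%, 5.05% and 4.82% in control 1, 2 and 3 (4.90% ± 0.132, SD, n = 3), against 5.79%, 5.37% and 5.26% in SCI 1, 2 and 3 (5.48% ± 0.282, SD, n = 3). Every SCI library lay above every control library, SCI 1 highest. The difference of 0.579 percentage points had an exact two-sided permutation p of 0.1, the smallest that this test can give with 3 libraries against 3.

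The median share over arms, in which each arm weighs the same, was 4.49%, 4.26% and 4.08% in control 1, 2 and 3, against 5.57%, 4.52% and 4.81% in SCI 1, 2 and 3. The groups did not overlap, but SCI 2 lay just above control 1, and the exact two-sided permutation p for the difference of 0.689 points was 0.1. The groups overlapped (exact permutation p of 0.2) with at least 5000 untailed reads in every library, with matches of 20 nt or more, with untailed reads before a templated A left out (0.523 points) and for the mean over arms (0.514 points). Without SCI 1 the difference was 0.388 points. For the pooled share, the difference with each arm held at a fixed weight was 0.494 points, without the 5 arms of most untailed reads 0.528 points, and without untailed reads before a templated A 0.637 points. In each of these 3 the groups did not overlap and the exact permutation p was 0.1. U-tailed reads showed no such order: their pooled share was 5.40%, 4.82% and 4.85% in control 1, 2 and 3, against 4.90%, 4.87% and 5.004% in SCI 1, 2 and 3, with an exact two-sided permutation p of 1.0.

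The share of A among single added bases was 46.3% ± 2.07 (SD, n = 3) in control and 49.6% ± 1.35 (SD, n = 3) in SCI, with no overlap and an exact two-sided permutation p of 0.1. U among single added bases was 48.7% ± 2.03 (SD, n = 3) in control and 45.7% ± 1.26 (SD, n = 3) in SCI. By the base before the tail, the A-tailed share of ends in A was 0.840 points higher in SCI and that of ends in C 0.680 points higher, without overlap, while the groups overlapped for ends in G and in T. Tail length did not separate the groups. Among A-tailed reads with the main 5′ start, those on shortened ends made up 39.69% to 39.93% in control and 39.96% to 42.21% in SCI.

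Arm by arm, the odds of A-tailed over untailed reads were compared with edgeR's quasi-likelihood test, with 1 term per library, and Benjamini-Hochberg adjustment over all 221 arms. No arm passed an adjusted p of 0.05 (0 of 221, 0.0%), and the smallest adjusted p of the edgeR test was 0.0572. At an unadjusted p under 0.05 the same test gave 45 arms higher in SCI (20.4%) and 2 lower (0.905%), DESeq2 passed 9 arms after adjustment, and limma on log2 odds passed 0, with 42 unadjusted. In all, 172 arms (77.8%) had higher odds in SCI and 49 lower, with a median log2 change of 0.152. Every SCI library lay above every control library in 58 arms (26.2%) and below in 3 (1.36%). With each library centred on its own median log2 odds, a setting added after the data were seen, the split was 80 higher and 141 lower, with 0 arms passing after adjustment and 31 at an unadjusted p under 0.05 (11 higher, 20 lower) and a median of -0.06.

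A group of 5 arms shared the smallest adjusted p of 0.0572 by the edgeR quasi-likelihood test with Benjamini-Hochberg adjustment. Their most abundant A-tailed reads follow, with the added A in capitals.
miR-127-5p: ctgaagctcagagggctctgatA
miR-140-3p: taccacagggtagaaccacggaA
miR-136-3p: tcatcgtctcaaatgagtcttA
miR-23a-3p: atcacattgccagggatttA
miR-153-3p: ttgcatagtcacaaaagtgatA

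miR-127-5p, an arm of the Dlk1-Dio3 cluster (12:109592846-109592915, plus strand), had A-tailed shares of 5.08%, 5.94% and 6.04% in control 1, 2 and 3, against 9.25%, 8.05% and 7.83% in SCI 1, 2 and 3. The groups did not overlap, and the log2 odds changed by 0.60 ± 0.13 (SE, n = 3 per group; edgeR adjusted p = 0.0572). Its level was 1088 CPM in control and 1171 CPM in SCI, and its U-tailed odds differed by -0.02 on the log2 scale. The added A followed shortened ends in 88.4% of its A-tailed reads. With libraries centred on their median the change of miR-127-5p was 0.38, and those of the other 4 arms lay between 0.32 (miR-136-3p) and 0.47 (miR-153-3p).

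miR-140-3p, best known from cartilage (8:107551244-107551313, plus strand), had 5.81%, 6.41% and 5.83% in control 1, 2 and 3, against 9.58%, 7.72% and 8.47% in SCI 1, 2 and 3, again without overlap (log2 odds change 0.55 ± 0.13, SE). miR-136-3p, also of the Dlk1-Dio3 cluster (12:109595327-109595388, plus strand), had 1.09%, 1.31% and 1.13%, then 1.85%, 1.57% and 1.66% (0.54 ± 0.13). miR-23a-3p, made with miR-27a and miR-24 from 1 transcript (8:84208518-84208592, plus strand), had 3.39%, 3.24% and 2.73%, then 5.21%, 3.88% and 4.71% (0.58 ± 0.15). In these 3 arms the lowest SCI library was SCI 2.

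miR-153-3p, a neuron miRNA (12:117250817-117250885, plus strand), had 2.01%, 3.23% and 3.05% in control 1, 2 and 3, against 4.75%, 3.77% and 4.45% in SCI 1, 2 and 3 (log2 odds change 0.69 ± 0.17, SE). Most of its untailed reads end at nt 22, before a templated A, and 98.3% of its A-tailed reads had shortened ends. At nt 21, the end that carries nearly all its visible tails, 9.36%, 21.5% and 19.8% of reads were A-tailed in control 1, 2 and 3, against 28.5%, 24.5% and 27.9% in SCI 1, 2 and 3. Control 1, the library with the fewest shortened untailed ends, was lowest by far. For none of these 5 arms did the level pass the edgeR quasi-likelihood test with Benjamini-Hochberg adjustment; the adjusted p for the level ran from 0.53 (miR-136-3p) to 0.834 (miR-127-5p).

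Several well-known miRNAs had higher shares in each SCI library without passing the adjusted test. miR-21a-5p, a miRNA induced by injury in many tissues (11:86584067-86584158, minus strand), had 3.95%, 4.19% and 4.14% in control 1, 2 and 3, against 6.73%, 4.69% and 5.97% in SCI 1, 2 and 3 (log2 odds change 0.51 ± 0.15, SE; edgeR quasi-likelihood test, Benjamini-Hochberg adjusted p = 0.0795). With libraries centred on their median the change was 0.29. Its level was 5320 CPM in control and 5231 CPM in SCI. The visible tail stood mostly on the end 1 base beyond the main read, as in the read printed here.
miR-21a-5p: tagcttatcagactgatgttgacA

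At that end, nt 23, miR-21a-5p was A-tailed at 13.2%, 17.02% and 16.8% in control 1, 2 and 3, against 21.9%, 16.96% and 18.1% in SCI 1, 2 and 3, where the groups overlapped. At nt 22, the main end, the values were 2.39%, 1.95% and 1.89%, then 2.06%, 1.84% and 1.73%. At the main end the SCI values did not lie above the control values.

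miR-132-3p, induced by neuronal activity through CREB (11:75173682-75173747, plus strand), had 6.03%, 6.79% and 6.84% in control 1, 2 and 3, against 8.14%, 7.82% and 8.11% in SCI 1, 2 and 3. The SCI libraries lay close together and above each control (log2 odds change 0.32 ± 0.10, SE; edgeR quasi-likelihood test, Benjamini-Hochberg adjusted p = 0.111). With libraries centred on their median the change was 0.10. Its neighbour miR-212-3p, which shares the seed, had a control mean of 12.1% ± 0.910 and an SCI mean of 12.9% ± 0.663 (SD, n = 3), and the groups overlapped.

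miR-26a-5p had 5.13%, 4.83% and 4.91% in control 1, 2 and 3, against 6.28%, 5.74% and 5.85% in SCI 1, 2 and 3 (log2 odds change 0.28 ± 0.10, SE; edgeR quasi-likelihood test, Benjamini-Hochberg adjusted p = 0.135). With libraries centred on their median the change was 0.06. At its main end, nt 22, the values were 2.26%, 2.45% and 2.41%, then 3.97%, 2.88% and 2.91%, without overlap. At nt 21 they were 10.1%, 9.73% and 9.79%, then 9.96%, 10.7% and 10.5%, and overlapped. In let-7a-5p reads ending at nt 22 were A-tailed at 5.61%, 6.15% and 6.41%, then 8.66%, 7.24% and 6.96%, without overlap. At nt 19, nt 20 and nt 21, the other visible ends of let-7a-5p, the groups overlapped.

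Among the let-7 arms 8 of 9 had higher odds in SCI, and in 6 of 9 every SCI library lay above every control library, with a median log2 change of 0.23; over all 221 arms 77.8% were higher, 26.2% without overlap, and the median was 0.15. With libraries centred on their median, 5 let-7 arms were higher and 4 lower, with a median of 0.01. let-7i-5p had 14.9%, 15.1% and 14.4% in control 1, 2 and 3, against 18.01%, 16.3% and 16.3% in SCI 1, 2 and 3, and let-7b-5p showed no difference larger than the spread (12.5% ± 0.527 and 12.5% ± 0.729, SD, n = 3). The 43 arms of the Dlk1-Dio3 cluster had 35 higher and 8 lower, 11 without overlap, and a median change of 0.20, shares close to those over all arms, and with libraries centred the split was 20 higher and 23 lower. The 4 endothelial and mural markers all had higher odds (median 0.35, or 0.14 with libraries centred), 1 of them without overlap. This was miR-126a-5p, with 8.73%, 8.93% and 9.50% in control 1, 2 and 3, against 12.2%, 10.7% and 11.6% in SCI 1, 2 and 3. The 3 erythrocyte markers were also all higher, with libraries centred or not (median 0.25, or 0.07 centred). So were the 2 measured leukocyte markers and the 5 miR-181 arms before centring. After it the 2 leukocyte markers were lower, and miR-181 had 2 higher and 3 lower. Of the 6 neuron markers 4 were higher, and 0 with libraries centred. The 3 oligodendrocyte markers all had higher odds too (median 0.22), 1 of them without overlap, but 2 were higher and 1 lower with libraries centred. The summed level of this list was lower in SCI; its part in these shares was not tested. In whole tissue, fewer cells of a type and less RNA per cell cannot be told apart.

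The family with the opposite sign was miR-7, enriched in neurons and neuroendocrine cells. Its 3 arms all had lower odds in SCI, with a median log2 change of -0.21 (-0.43 with libraries centred), but none without overlap. The miR-9 median was also just below 0 (-0.001), with 1 arm higher and 1 lower. With libraries centred, lower odds were not particular to miR-7. All 7 arms of the miR-17-92 and miR-106b-25 clusters, all 6 neuron markers and all 3 arms of miR-99 and miR-100 were then lower too. miR-7b-5p had 1.91%, 1.80% and 1.49% in control 1, 2 and 3, against 1.07%, 2.09% and 0.971% in SCI 1, 2 and 3, so SCI 2 lay above all controls. miR-7a-5p had 1.51%, 1.28% and 1.14%, then 0.877%, 1.67% and 0.979%. The level of miR-7a-5p was 2115 CPM ± 275 in control against 3514 CPM ± 1220 in SCI (SD, n = 3).

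Only 3 arms had every SCI library below every control library. miR-152-3p (11:96850393-96850465, plus strand) had 15.3%, 15.7% and 14.2% in control 1, 2 and 3, against 14.1%, 11.98% and 11.5% in SCI 1, 2 and 3 (log2 odds change -0.31 ± 0.13, SE; edgeR quasi-likelihood test, Benjamini-Hochberg adjusted p = 0.188). miR-148b-3p, with the same seed (15:103285125-103285221, plus strand), had 2.45%, 1.95% and 1.89%, then 1.78%, 1.81% and 1.61%. miR-212-5p had 1.246%, 1.08% and 1.03%, then 0.866%, 0.843% and 0.846%, from 278 A-tailed reads in all. The gap between the groups was small beside the spread in miR-152-3p and miR-148b-3p, where single libraries of the 2 groups lay close to each other. miR-203-3p and miR-344-3p, the other arms of smallest p in this direction, overlapped (log2 odds changes of -0.49 ± 0.23 and -0.39 ± 0.18, SE). The change of miR-344-3p was -0.23 without control 1 and -0.25 without SCI 3, and that of miR-148b-3p, -0.27 with all libraries, was -0.15 without control 1. With libraries centred, the changes of these 5 arms lay between -0.69 (miR-203-3p) and -0.49 (miR-148b-3p).
The most abundant A-tailed reads of the 2 arms that share a seed follow.
miR-152-3p: tcagtgcatgacagaacttggA
miR-148b-3p: tcagtgcatcacagaactttgtA

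Added U was put to the same test. Of 219 arms with enough U-tailed reads, 0 passed the edgeR quasi-likelihood test after Benjamini-Hochberg adjustment and 20 had an unadjusted p under 0.05; every SCI library lay above every control library in 17 arms and below in 14. Across these 219 arms the change in A-tailed odds and that in U-tailed odds had a rho of 0.206. The odds of added A over added U, tested in 211 arms, were higher in SCI in 133 and lower in 78, with 0 passing the adjusted edgeR test and 29 at an unadjusted p under 0.05. The change in A-tailed odds and the change in level had a rho of -0.392 over 221 arms, which share the untailed counts, and no arm's level passed the edgeR quasi-likelihood test with Benjamini-Hochberg adjustment (smallest adjusted p 0.157, miR-143-3p).

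One SCI library weighed on these counts. SCI 1 had the highest pooled A-tailed share and the highest median share over arms, though for ends in G control 1 was higher (11.2% against 10.8%). Without SCI 1, 28 arms had an unadjusted p under 0.05 in the edgeR test (26 higher, 2 lower) and the median log2 change was 0.09. Without SCI 2, the lowest SCI library in 4 of the 5 arms of smallest p, 17 arms passed the adjusted edgeR quasi-likelihood test, 16 higher and 1 lower. Without control 3, 3 arms passed, miR-127-5p, miR-153-3p and miR-497a-5p. Without control 1, whose 3′ ends stood apart, 0 passed after adjustment and 48 arms were higher and 1 lower at an unadjusted p under 0.05.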

How the data were processed

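Per the file headers, the authors deposited 1 table per library (6 in all) that lists every distinct sequence beside its unscaled read count; lengths were 17 to 34 nt. Which trimmer and read filters were used is not given in the sources used here. As the build, the submitters' processing notes give GRCm38. Per the labels' protocols, the adapters carried degenerate ends (HD adapters), which lessen ligation bias. There were no molecular identifiers, and intervals therefore reflect only counting error.

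Reads were matched here to 1174 miRNA hairpins of GENCODE M21. An untailed read was a sense match of 18 to 26 nt without mismatch. Arms were split at the hairpin midpoint and merged where they had the same main read or shared at least 50% of reads; reads of several arms were left out (0.146% to 0.187% of A-tailed reads). RefSeq gave mature names by position. The genome was not used here: 0.0267% to 0.130% of A-tailed reads lay in other GENCODE transcripts, and 0.155% to 0.215% ended at the hairpin end, where the next genomic base was not read.

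Arms were tested with edgeR 4.0.16 (R 4.3.3) on A-tailed and untailed counts of all 6 libraries. Arms needed 1000 untailed reads in every library and 10 A-tailed reads in all, and passed at a Benjamini-Hochberg adjusted p below 0.05. DESeq2 1.42.0 and limma 3.58.1 (log2 odds with 0.5 added), other filters, other match rules, a replicate block and leaving out each library were alternatives. On simulated data for this comparison (221 arms) the test called 40% of arms changed 1.25-fold, 90% changed 1.5-fold, 100% changed 2-fold and 0.621% of unchanged ones. The simulation drew each arm independently, with the same spread in all arms and no shift shared by the arms of a library. In the real libraries centring changed the sign of the median change, so these rates need not hold for them. Levels are TMM-scaled CPM of untailed reads. Over the shares of all 221 arms in the 6 libraries the 95% Wilson interval was at most 4.26 points wide (median 0.714). Chi-square values per degree of freedom between libraries were 336 to 3109, so none repeats another. Shares and exact tests used scipy 1.17.1 and numpy 2.4.6 in Python 3.11.15.

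The arms, lists and tests were chosen with earlier results of these data known. Named arms are the 12 of highest and 6 of lowest share, the 5 with most untailed reads, the 5 of smallest p per direction, the 2 highest of each list and 10 set ones. Further arms (miR-99b-5p, those of both-arm hairpins, ends of families, arms at the read minimum, miR-497a-5p, miR-143-3p) were named after their values were seen. No sequence from chromosome 18 is printed.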

Additional observations from a re-analysis of the deposited data

How the results depend on the processing

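The number of arms passing the adjusted edgeR test (0 as reported) was 9 with DESeq2, 5 with at least 5000 untailed reads in every library (miR-127-5p, miR-136-3p, miR-140-3p, miR-23a-3p and miR-381-3p) and 1 with exactly 1 added A (miR-127-5p). Leaving out 1 library gave 0 to 17, the highest without SCI 2. It was 0 in the other alternatives, namely limma, the lower filter, the other match and start rules, no reads found in other transcripts, and, both added after seeing the data, untailed reads before a templated A left out and libraries centred on their median. With the replicate number as a block, 26 arms passed (25 higher, 1 lower). Same-numbered libraries share only a number: their deviations correlated at 0.077, 0.014 and 0.0062, and only control 1 correlated best with its own number. Why the counts moved was not tested. Centring turned the median log2 change of all arms from 0.15 to -0.06 and the split from 172 higher and 49 lower to 80 higher and 141 lower. The 13 arms followed singly kept their sign in every alternative that could test them. Most of these arms were picked for a small p in these same libraries, and the alternatives reuse the same reads. The kept signs are therefore no separate evidence of a change. The pooled share difference stayed between 0.42 and 0.685 points, the median between 0.388 and 0.912 and the A share of single bases between 2.2 and 4.22, all higher in SCI. Depth limits miR-103-3p, miR-107-3p, miR-144-3p, miR-344d-3p and miR-451a, with 10 to 132 A-tailed reads.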
